A study of Mus musculus with 10 samples.

Results

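The 5 genes Lhfpl2, Nceh1, Extl1, Mreg and Prr32 had some of the clearest increases in AdCKO iBAT outside the stress and immune gene lists. They are 5 of the 15075 genes in the deposited table and were picked by name because their levels in AdCKO lay far above those in Control. The difference between the groups therefore chose them, and it is given below as a description without a test. The choice did not use how the genes vary with other genes among the AdCKO libraries. This was tested against Ddit3, which encodes the stress-induced transcription factor CHOP-10, and against Cd68, a lysosomal glycoprotein gene used as a macrophage marker. A clear increase does favour genes that vary little among the AdCKO libraries, which leaves less room for a slope. For the 5 genes the SD of log2(level + 1) there was 0.12 to 0.2, against 0.25 for Ddit3 and 0.292 for Cd68.

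RNA came from the interscapular brown adipose tissue (iBAT) of 5 Control and 5 AdCKO mice, each mouse giving 1 library. All mice were C57BL/6, 20 weeks old and kept at room temperature, and both groups carried a Crls1 allele with exon 4 between loxP sites. Crls1 encodes cardiolipin synthase, which makes the signature phospholipid of the mitochondrial inner membrane. AdCKO mice also carried Adipoq-Cre, whose promoter is active in adipocytes, so the other cells of the fat pad kept an intact allele, while Control mice lacked Cre and are named wild-type in the labels. Levels are normalized reads per kb of counted exon, as deposited, and can be compared between genes as well as between libraries.

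The known roles of the 5 genes differ. Nceh1 encodes neutral cholesterol ester hydrolase, a membrane-bound enzyme that frees cholesterol from its stored esters and has been studied most in lipid-laden macrophages. Extl1 encodes an exostosin-like glycosyltransferase of the family that builds heparan sulfate, the sugar chain of cell surface and matrix proteoglycans. Mreg encodes melanoregulin, which takes part in the transport of melanosomes and lysosomes. Lhfpl2 encodes a membrane protein with several transmembrane segments, of the lipoma HMGIC fusion partner-like family, and Prr32 a proline-rich protein; little is known of what either does.

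In the mm9 build the deposited table places Lhfpl2 (NM_172589) at chr13:94827751-94965364 on the plus strand, Nceh1 (NM_178772) at chr3:27081926-27143833 on the plus strand and Extl1 (NM_019578) at chr4:133912288-133928462 on the minus strand. Mreg (NM_001005423) lies at chr1:72205807-72258881 on the minus strand and Prr32 (NM_026841), annotated as 1110059M19Rik in the gene set used here, at chrX:42444081-42445967 on the plus strand. All 5 are annotated as protein-coding, and the exons of none overlap those of another annotated gene, so their reads are not shared with a neighbour. Between 1109 counted bases for Prr32 and 4394 for Nceh1 entered the levels.

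The promoters of the genes differ in base composition. RefSeq windows (GRCm38.p6) of 300 bases, from 250 before the annotated start to 50 after it, were found for all 5 genes. Mreg had 2 windows, of which the one at the deposited start is described. Each window described matched mm9 at 1 place, at the deposited start. The windows of 3 genes are printed, 5′ to 3′ on the strand of the gene, to show the range. The Lhfpl2 window (mm9 chr13:94827501-94827800) holds 79.3% G and C and 40 CpG dinucleotides, and 98.8% of all promoter windows have no more G and C. The Prr32 window (mm9 chrX:42443831-42444130) holds 42.7% G and C and 1 CpG, and only 16.5% of windows have no more G and C. The Nceh1 window (mm9 chr3:27081676-27081975) lies between them with 63.3% G and C and 20 CpG, and is the one that held a searched motif, printed in capitals. The windows of Extl1 (55.3% G and C, 9 CpG) and Mreg (56% G and C, 22 CpG) fell between those of Nceh1 and Prr32 in G and C.
Lhfpl2: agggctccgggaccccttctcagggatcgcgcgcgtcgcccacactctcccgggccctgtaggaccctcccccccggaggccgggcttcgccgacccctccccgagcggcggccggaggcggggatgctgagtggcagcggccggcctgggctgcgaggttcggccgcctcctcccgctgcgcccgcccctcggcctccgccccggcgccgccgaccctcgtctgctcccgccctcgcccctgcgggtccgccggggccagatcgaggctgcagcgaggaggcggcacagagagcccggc
Nceh1: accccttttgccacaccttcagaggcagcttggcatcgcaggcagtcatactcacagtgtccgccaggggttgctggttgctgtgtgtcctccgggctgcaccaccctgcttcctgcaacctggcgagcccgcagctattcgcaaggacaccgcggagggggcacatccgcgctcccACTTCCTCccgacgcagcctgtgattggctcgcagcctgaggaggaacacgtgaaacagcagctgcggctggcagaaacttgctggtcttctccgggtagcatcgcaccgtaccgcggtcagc
Prr32: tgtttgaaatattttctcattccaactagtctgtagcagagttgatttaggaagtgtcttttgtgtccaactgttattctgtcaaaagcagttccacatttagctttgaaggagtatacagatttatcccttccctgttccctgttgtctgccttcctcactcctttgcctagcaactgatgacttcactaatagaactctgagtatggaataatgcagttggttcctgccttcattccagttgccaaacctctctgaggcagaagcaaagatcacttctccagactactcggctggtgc
Motifs were searched on both strands as exact letters. The C/EBP-ATF composite site TGATGNAA, bound by factors of the integrated stress response, is in 3.97% of the 32851 promoter windows, the cyclic AMP response element TGACGTCA in 1.79%, the AP-1 site TGAGTCA in 5.2%, the CLEAR core TCACGTGA of lysosomal genes in 0.974% and the PU.1 site GAGGAAGT of myeloid genes in 3.2%. Of the windows of the 5 genes, that of Nceh1 matched the PU.1 letters, on the opposite strand from the gene and 73 bases before the start, and no other window of the 5 genes matched any of the motifs. It is the only match in that window, so no motifs overlap there, and a match of letters is a description and not a binding site.

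Crls1 itself checks the labels. Its level, in normalized reads per kb, was 1060 ± 190.9 for Control (SD, n = 5, as for each ± below) and 217.3 ± 26.4 in AdCKO, and the lowest Control library (812.8) lay above the highest AdCKO library (249.2). The tissue label was checked with 11 adipocyte genes, of which the brown fat uncoupling protein gene Ucp1 had a level of 36910 ± 8713 in Control and 14070 ± 4478 in AdCKO. The normalized reads of a library, which are not its sequencing depth, added up to 7615403 to 8171138 for Control mice and 5419800 to 5843024 for AdCKO mice. The AdCKO libraries 1, 2 and 4 stood apart in skeletal muscle genes, whose summed level was 6590 in AdCKO 1, 25770 in AdCKO 2 and 9828 in AdCKO 4, against 159.1 in AdCKO 3, 146.5 in AdCKO 5 and 113.4 to 143.8 in Control. Results among AdCKO libraries are therefore given with these muscle values beside them.

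Lhfpl2, the membrane protein gene, went from a low to a high level. Its level in the Control libraries 1 to 5 was 10.98, 8.12, 9.63, 9.78 and 9.64 normalized reads per kb. Across the AdCKO libraries 1 to 5 it was 159, 196, 169.3, 172.6 and 148.5. The groups were far apart, with the lowest AdCKO library 13.5 times above the highest Control library. The mean level was 9.63 ± 1.01 in Control and 169.1 ± 17.8 in AdCKO, a ratio of 17.6 and a log2 difference of 4.00 on the scale of log2(level + 1). This difference ranked 17 by size among all tested genes with a positive difference, called or not, ahead of Extl1 (27), Mreg (39), Nceh1 (40) and Prr32 (72).

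Nceh1, the cholesterol ester hydrolase gene, was at 10.1, 8.33, 9.57, 10.2 and 11.61 normalized reads per kb in the Control libraries 1 to 5. In the AdCKO libraries 1 to 5 its level was 108.8, 111.9, 125.7, 105.3 and 126.2. AdCKO 3 and AdCKO 5 were the high libraries, and the other AdCKO libraries lay close together below them. The mean level was 9.96 ± 1.19 in Control and 115.6 ± 9.74 in AdCKO, a ratio of 11.6 and a log2 difference of 3.41, with a gap of 9.07 times between the nearest libraries of the groups.

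Extl1, the exostosin-like gene, had the lowest levels of the 5 genes in both groups. It was at 3.24, 3.54, 4.18, 3.52 and 3.69 normalized reads per kb in the Control libraries 1 to 5 and at 52.1, 57.4, 48.8, 60.9 and 64.9 in the AdCKO libraries 1 to 5. Control 3 was the highest of its group and AdCKO 3 the lowest of its own. The mean level was 3.63 ± 0.347 in Control and 56.8 ± 6.48 in AdCKO, a ratio of 15.6 and a log2 difference of 3.64. Because 1 is added before the logarithm, this log2 difference is smaller than that of the ratio itself, and at so low a Control level it is the most affected of the 5.

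Mreg, the melanoregulin gene, had the highest level of the 5 genes in both groups. Its level was 21.6, 18.2, 17.9, 23.7 and 21.0 normalized reads per kb in the Control libraries 1 to 5 and 207.2, 264, 245.6, 189.2 and 247.5 in the AdCKO libraries 1 to 5. AdCKO 4 and AdCKO 1 were low and AdCKO 2, 3 and 5 high, with a coefficient of variation of 13.5% that was the widest of the 5 genes. The mean level was 20.5 ± 2.44 in Control and 230.7 ± 31.2 in AdCKO, a ratio of 11.3 and a log2 difference of 3.43.

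Prr32, the proline-rich protein gene on the X chromosome, was at 12.1, 14.8, 16.4, 13.1 and 15.5 normalized reads per kb in the Control libraries 1 to 5. Its level in the AdCKO libraries 1 to 5 was 121.7, 121.7, 112.7, 133.9 and 107.4. AdCKO 4 was the highest and AdCKO 3 and AdCKO 5 were the lowest, the reverse of Nceh1. The mean level was 14.4 ± 1.75 in Control and 119.5 ± 10.1 in AdCKO, a ratio of 8.32 and a log2 difference of 2.98, which was the smallest of the 5 genes.

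**Figure D1:**
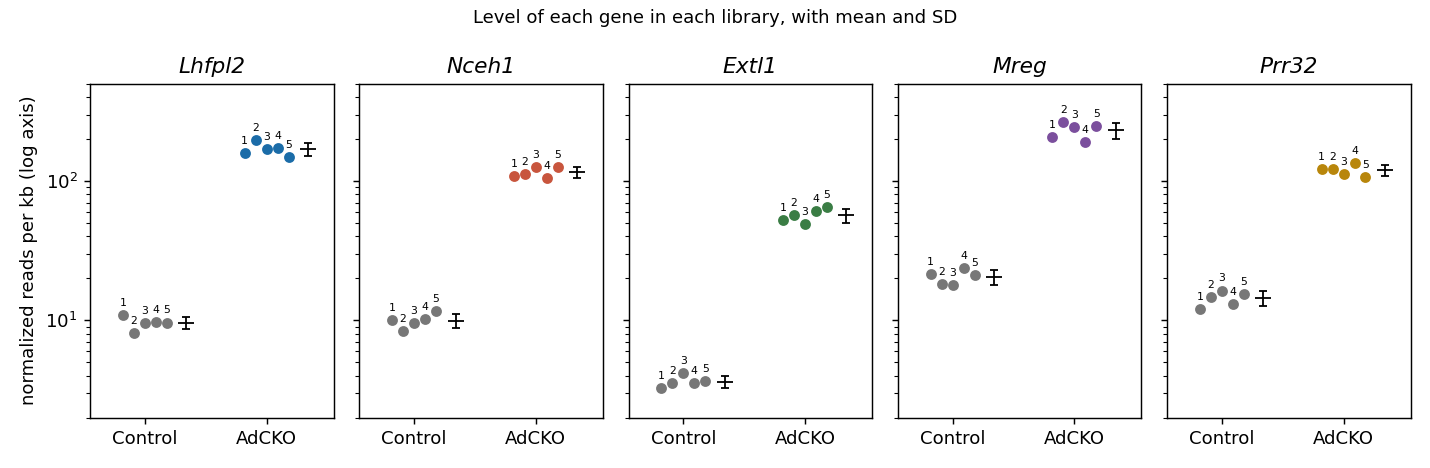
Level of each of the 5 genes in each library, in normalized reads per kb on a log axis, with library numbers above the points; the bar beside each group is the mean with its SD (n = 5). For each gene every AdCKO library lies above every Control library, by 6.56 times for Prr32 and 13.5 times for Lhfpl2 between the nearest libraries of the groups.

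All 5 genes passed the filter for testing, which asked for a mean level of 10 or more in either group, but Lhfpl2, Nceh1 and Extl1 passed it through AdCKO alone. For each of them the AdCKO libraries all lay above the Control libraries, as the choice requires and as was so for 24.5% of the 11244 tested genes. In the fit across all tested genes 25.6% were called higher in AdCKO and 28% lower at an adjusted p under 0.01 (limma, Benjamini-Hochberg). In bulk tissue, more RNA of a gene per cell and more cells that make it cannot be told apart. In Control the order of the mean levels was Mreg, Prr32, Nceh1, Lhfpl2 and Extl1, and Nceh1 and Lhfpl2 overlapped. In AdCKO it was Mreg, Lhfpl2, Prr32, Nceh1 and Extl1. There the libraries of Prr32 (107.4 to 133.9) and Nceh1 (105.3 to 126.2) overlapped, and the highest Lhfpl2 library (196) lay above the lowest of Mreg (189.2). Among all 15075 genes, Lhfpl2 moved from the 29.8th percentile of Control levels to the 81.8th of AdCKO levels, Extl1 from the 19.7th to the 57.4th and Mreg from the 39.6th to the 86.6th.

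**Figure D2:**
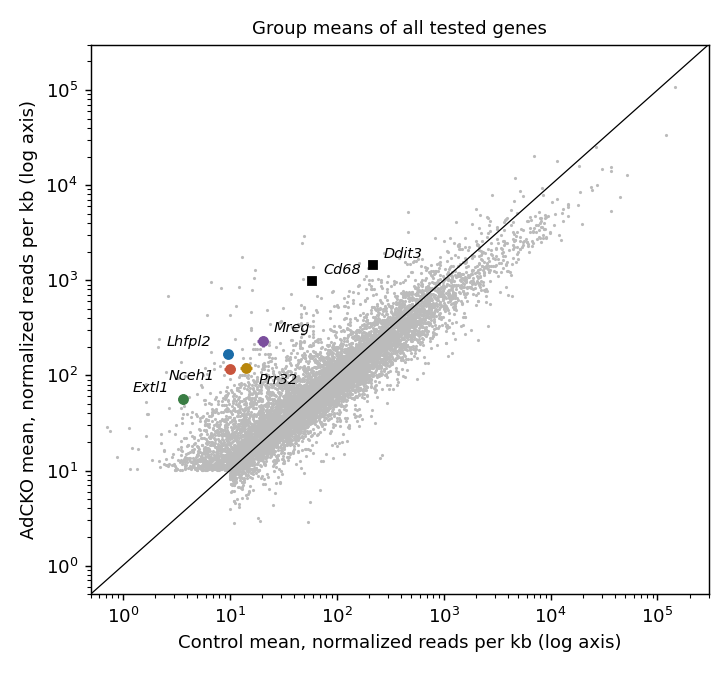
Mean level in Control (x axis) and in AdCKO (y axis) of the 11244 tested genes, in normalized reads per kb on log axes, with the line of equal levels; error bars on the 5 coloured genes are SD (n = 5), mostly hidden by the points. The 5 genes lie above the line at Control means from 3.63 to 20.5, below those of Cd68 (59.4) and Ddit3 (219.4).

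In Control 3, a mouse without Cre, macrophage genes were high, and so were fibroblast and preadipocyte genes (summed level 1785, next 1482) and lymphocyte genes (67, next 42.8). Control 3 had a Cd68 level of 105.9 normalized reads per kb, against 38.95 to 62.6 in the other Control libraries, and Csf1r, the receptor gene for a macrophage growth factor, was at 61.1 against 22.7 to 46.0. Prr32 (16.4 against 12.1 to 15.5) and Extl1 (4.18 against 3.24 to 3.69) were highest in Control 3. Lhfpl2 (9.63 against 8.12 to 10.98) and Nceh1 (9.57 against 8.33 to 11.61) lay within the range of the others, and Mreg (17.9 against 18.2 to 23.7) was lowest there. These values come from 1 library, and no test was made of them.

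The question of which genes follow Ddit3 and which follow Cd68 was asked among the 5 AdCKO libraries. Ddit3 was at 1214, 1283, 1743, 1289 and 1710 normalized reads per kb in AdCKO 1 to 5, after 219.4 ± 7.97 in Control. Cd68 was at 926, 1095, 871.4, 1250 and 741.2 in the same libraries, after 59.4 ± 27.5 in Control. The libraries with high Ddit3, AdCKO 3 and AdCKO 5, were those with the lowest Cd68, and they were also those without the high muscle genes. Crls1 ranked the AdCKO libraries as Ddit3 did, at 249.2 and 241.7 in AdCKO 3 and AdCKO 5 and 192.6 to 207.6 in the others. Its slope on Ddit3 was 0.68 (SE 0.185, unadjusted p = 0.00814, limma adjusted p = 0.211). Among the 10 pairs of AdCKO libraries, Ddit3 and Cd68 ranked the libraries alike in 4, Cd68 and the summed muscle genes in 9, and Ddit3 and the summed muscle genes in 3. Cd68 and the muscle genes thus ranked the libraries much alike, and Ddit3 was high in the libraries where both were lowest. With 5 libraries the parts of Ddit3, Crls1, Cd68 and the muscle genes in what follows cannot be told apart.

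Nceh1 was highest in the libraries with high Ddit3. It ranked 7 of the 10 pairs of AdCKO libraries as Ddit3 did, 1 as Cd68 did and 2 as the summed muscle genes did. Its slope on Ddit3, in log2 units of the gene per log2 unit of Ddit3, was 0.46 (SE 0.19, 95% interval 0.006 to 0.906, unadjusted p = 0.0479, limma adjusted p = 0.349). Its slope on Cd68 was -0.35 (SE 0.17, 95% interval -0.764 to 0.072, unadjusted p = 0.0904, limma adjusted p = 0.511). AdCKO 3 and AdCKO 5, low in muscle genes, were at a mean of 126 normalized reads per kb, and the others at 105.3 to 111.9.

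Mreg shared part of this order. It ranked 8 of the 10 pairs of libraries as Nceh1 did, 5 as Ddit3 did, 3 as Cd68 did and 4 as the summed muscle genes did. AdCKO 2, with the highest muscle genes and high Cd68, was also its highest library. The slope of Mreg on Ddit3 was 0.40 (SE 0.319, 95% interval -0.356 to 1.156, limma adjusted p = 0.615) and that on Cd68 was -0.33 (SE 0.279, 95% interval -1.004 to 0.34, limma adjusted p = 0.692), so both intervals held 0. Without AdCKO 4 the slope on Cd68 turned to 0.10, and without AdCKO 2 the slope on Ddit3 was 0.64 (SE 0.257, limma adjusted p = 0.337).

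Prr32 had nearly the order of Cd68. It ranked 9 of the 10 pairs of libraries as Cd68 did, 8 as the summed muscle genes did, 3 as Ddit3 did and 0 as Nceh1 did. Its slope on Cd68 was 0.39 (SE 0.158, 95% interval 0.011 to 0.774, unadjusted p = 0.0452, limma adjusted p = 0.437), and on Ddit3 it was -0.39 (SE 0.21, 95% interval -0.891 to 0.107, limma adjusted p = 0.453). Prr32 averaged 110 normalized reads per kb in AdCKO 3 and AdCKO 5, and the others were at 121.7 to 133.9. It had the fewest counted bases of the 5 genes (1109). How much of its spread among AdCKO libraries (SD 10.1) came from counting is not known.

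Lhfpl2 ranked 8 of the 10 pairs of libraries as Cd68 did, 4 as Ddit3 did and 9 as the summed muscle genes did. Its slope on Cd68 was 0.37 (SE 0.203, 95% interval -0.123 to 0.855, limma adjusted p = 0.547) and on Ddit3 it was -0.26 (SE 0.271, 95% interval -0.90 to 0.386, limma adjusted p = 0.728). It ordered as Prr32 did in 7 pairs. The intervals of Lhfpl2 held 0 for both covariates, and its slope on Cd68 was -0.003 when all 10 libraries were fitted with the group as a term.

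Extl1 had slopes near 0 on both. It ranked 6 of the 10 pairs as Ddit3 did, 6 as Cd68 did and 5 as the summed muscle genes did, with its highest level in AdCKO 5 and its lowest in AdCKO 3, which were both high in Ddit3. Its slope was 0.00 on Ddit3 (SE 0.314, 95% interval -0.749 to 0.741, limma adjusted p = 0.998) and 0.02 on Cd68 (SE 0.273, 95% interval -0.639 to 0.677, limma adjusted p = 0.987). Both intervals reached past 0.6 in either direction, and both slopes changed sign with the scaling or with 1 library left out.

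**Figure D3:**
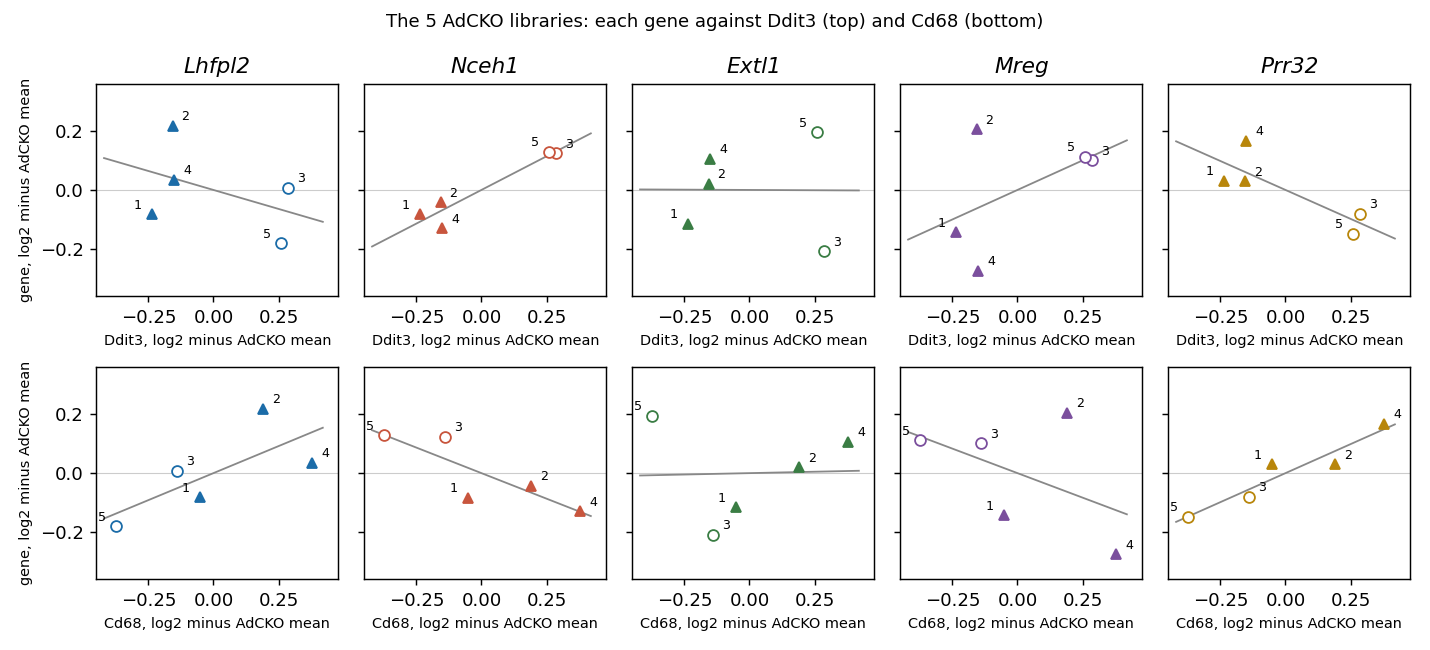
The 5 AdCKO libraries, numbered, with each gene (y axis) against Ddit3 (top row) or Cd68 (bottom row), all as log2(level + 1) minus the AdCKO mean; open circles are AdCKO 3 and AdCKO 5, low in muscle genes, filled triangles the other libraries, and lines the fitted slopes. The fitted line of Nceh1 has a slope of 0.46 on Ddit3 and -0.35 on Cd68, that of Prr32 -0.39 and 0.39, and those of Extl1 are near 0.

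Both intervals that left out 0, that of Nceh1 on Ddit3 and that of Prr32 on Cd68, took it in when any 1 AdCKO library was left out. None of the 5 genes passed the adjusted threshold of 0.01 on either covariate, nor did any other gene, which does not show that the slopes are 0. Of 11243 genes tested with limma, 0 were called on Ddit3 and 0 on Cd68, while 14.1% and 11.2% had an unadjusted p under 0.05. Positive slopes at that level were 5.86% of genes on Ddit3, among them Nceh1, and 6.41% on Cd68, among them Prr32. Each of these is 1 of the 5 genes. The slopes of the integrated stress response genes on Ddit3 were mixed, with a median of 0.195 over 23 genes. Of these, 5 were positive at an unadjusted p under 0.05, and Trib3, a pseudokinase gene induced by CHOP-10, had a slope of 1.05 (SE 0.197, limma adjusted p = 0.123). Differences between the slopes of genes were not tested.

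**Figure D4:**
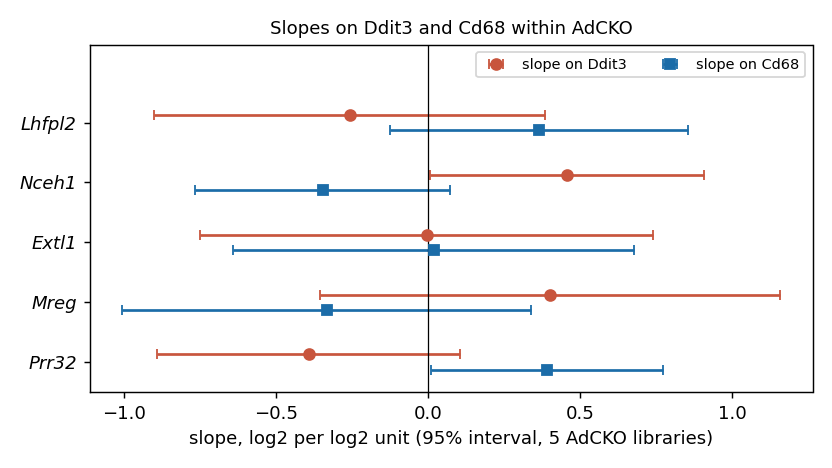
Slope of each gene on Ddit3 (circles) and on Cd68 (squares) among the 5 AdCKO libraries, in log2 units of the gene per log2 unit of the covariate, with 95% intervals. The interval leaves out 0 for Nceh1 on Ddit3 (0.006 to 0.906) and for Prr32 on Cd68 (0.011 to 0.774), before adjustment for the number of genes tested. The unadjusted limma p was under 0.05 in 4 of 17 alternatives for Nceh1 and 9 of 17 for Prr32. Those of Prr32 include fits of all 10 libraries and a fit on the macrophage list in place of Cd68. For either gene it was so in 0 of the 5 that leave out 1 AdCKO library.

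The muscle genes were put beside the 5 genes directly. The slope on the mean log2 level of the 11 muscle genes was -0.031 for Nceh1 (SE 0.014, limma adjusted p = 0.415), -0.018 for Mreg (SE 0.024, limma adjusted p = 0.802) and 0.003 for Extl1 (SE 0.022, limma adjusted p = 0.965). It was 0.028 for both Lhfpl2 (SE 0.018, limma adjusted p = 0.546) and Prr32 (SE 0.015, limma adjusted p = 0.488). On this muscle mean 91 of 11233 genes were called, and 13% had an unadjusted p under 0.05 (limma). Ddit3 had a slope of -0.068 on it (SE 0.018, limma adjusted p = 0.178) and Cd68 one of 0.068 (SE 0.023, limma adjusted p = 0.296). With the muscle mean added to the fit, Nceh1 had a slope of 0.445 on Ddit3 (SE 0.731). Prr32 then had one of 0.354 on Cd68 (SE 0.321). The increase over Control was present in both kinds of library, as it must be where every AdCKO library lies above every Control library. In AdCKO 3 and AdCKO 5 together the mean was 16.5 times that of Control for Lhfpl2 (18.3 in the other 3 libraries), 12.6 times for Nceh1 (10.9), 15.6 times for Extl1 (15.6), 12.0 times for Mreg (10.8) and 7.66 times for Prr32 (8.76).

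The genes whose pattern over the 10 libraries was most like each of the 5 were found by the root mean square difference of log2 levels, each set against its own Control mean. This measure is mostly set by the size of the group difference. Nearest to Lhfpl2 were Psat1, a serine synthesis gene (0.223), Trem2, a lipid receptor gene of macrophages (0.237), and Extl1 (0.323). Nceh1 was nearest to Prrx1, a homeobox gene of mesenchymal cells (0.115), Mreg (0.13) and Trib3 (0.146). For Extl1 they were Trem2 (0.208), Prrx1 (0.235) and Nceh1 (0.239), and for Mreg they were Nceh1 (0.13), Prrx1 (0.174) and Map1b, a microtubule-associated protein gene (0.202). Prr32 was nearest to the collagen gene Col1a2 (0.142) and to Sirpa (0.149) and Pirb (0.172), which encode inhibitory receptors of myeloid cells. These neighbours thus included genes of stress, macrophage and mesenchymal kinds.

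Smaller differences between the groups depend on the scaling, since giving every library the same total raised the median of all genes by 0.47 log2 units. The nearest measured genes on the chromosomes of the 5 had the following values. Beside Mreg, the fibronectin gene Fn1 (506 kb away) went from 27.7 ± 3.58 to 95.6 ± 29.1 normalized reads per kb (log2 difference 1.71, SE 0.176, limma adjusted p = 3.9e-06), and Pecr, a peroxisomal reductase gene 46.9 kb away, fell from 121.9 ± 29.8 to 54.2 ± 7.34 (log2 difference -1.13, SE 0.159, limma adjusted p = 5.24e-05). Beside Lhfpl2, Scamp1, 6.02 kb away, was at 82.9 ± 5.91 and 87.9 ± 5.99 (log2 difference 0.08, limma adjusted p = 0.324), and the lysosomal sulfatase gene Arsb, 115 kb away, fell from 145.5 ± 18.0 to 95.8 ± 11.6 (log2 difference -0.60, limma adjusted p = 0.000271). Beside Extl1, Pafah2 (23.8 kb) fell from 173.3 ± 12.4 to 132.4 ± 16.1 (log2 difference -0.39, limma adjusted p = 0.00172), and beside Nceh1, Tnfsf10 (72.2 kb) was at 48.5 ± 9.6 and 56.3 ± 10.4 (log2 difference 0.21, limma adjusted p = 0.26). The remaining neighbours, Ect2 beside Nceh1, Slc30a2 beside Extl1, and Dcaf12l1 and Smarca1 beside Prr32, had means of at most 3.47 in either group and were not tested.

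Relatives were measured for Lhfpl2 and Extl1. Of the family of Lhfpl2, Lhfp itself rose from 30.1 ± 3.57 to 80.3 ± 11.6 normalized reads per kb (log2 difference 1.38, SE 0.112, limma adjusted p = 5.5e-07), and Lhfpl3 and Lhfpl4 were too low to be tested. The other measured exostosin and exostosin-like genes did not pass the test. Ext1 was at 90.6 ± 17.4 in Control and 80.3 ± 5.08 in AdCKO (log2 difference -0.15, limma adjusted p = 0.249), Ext2 at 120.6 ± 7.47 and 106.9 ± 6.68 (-0.17, 0.0384), Extl2 at 38.1 ± 1.85 and 31.6 ± 3.24 (-0.27, 0.0125) and Extl3 at 129.2 ± 9.37 and 116.2 ± 18.8 (-0.16, 0.203).

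Of the other genes of heparan sulfate synthesis, 5 of 18 tested were higher, 2 lower and 11 not called, where 25.6% of all tested genes were higher and 28% lower. The share higher is thus near that of all genes, and the median log2 difference was -0.05, against -0.01 over all tested genes. The heparanase gene Hpse rose from 4.12 ± 0.945 to 18.6 ± 3.66 normalized reads per kb (log2 difference 1.93), the sulfotransferase gene Hs3st1 by 0.89 and the sulfatase gene Sulf1 by 0.83 on the log2 scale. Ndst1 (-0.38) and Fam20b (-0.29) fell. When every library was scaled to the same total, the split became 11 higher and 0 lower. Of the core proteins that carry the chains, 6 of 10 were higher and 0 lower (median 0.47). Among them Sdc1, encoding the membrane proteoglycan syndecan, rose from 10.3 ± 1.69 to 70.1 ± 11.7 (log2 difference 2.65), and Col18a1, a basement membrane collagen gene, rose from 27.3 ± 6.43 to 196.7 ± 25.6 (2.83). The glypican gene Gpc1 rose by 2.41 and the syndecan gene Sdc3 by 1.12.

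Genes of cholesterol ester turnover, the pathway of Nceh1, were called in both directions, as were genes at large. Of 19 tested, 7 were higher, 7 lower and 5 not called (median log2 difference -0.05), beside 25.6% higher and 28% lower over all tested genes. Soat1, which makes the esters that Nceh1 splits, rose from 4.84 ± 1.01 to 39.1 ± 6.69 normalized reads per kb (log2 difference 2.78, SE 0.147, limma adjusted p = 2.75e-08). The cholesterol exporter gene Abcg1 rose from 14.8 ± 1.52 to 85.9 ± 17.4 (2.44), Soat2 from 3.79 ± 0.113 to 13.3 ± 1.43 (1.57) and the lysosomal cholesterol transporter gene Npc1 from 123.9 ± 14.9 to 307 ± 21.8 (1.31). The lipases that fell are abundant in adipocytes. Ces1d, a carboxylesterase gene, went from 4237 ± 603.4 to 1129 ± 169.9 (-1.91), Pnpla2, the first lipase of triglyceride breakdown, from 12950 ± 1038 to 5554 ± 786.1 (-1.23) and Lipe, the hormone-sensitive lipase gene, from 8193 ± 890.7 to 3592 ± 569.9 (-1.20). Lipa, the lysosomal acid lipase gene, was at 826.9 ± 119.3 and 795 ± 59.7 (-0.05, limma adjusted p = 0.705). Quantile normalization changed the number of lower genes to 4.

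Genes of melanosome and lysosome transport, the setting of Mreg, were called about as often as all tested genes (25.6% higher, 28% lower), with 3 of 12 tested higher, 3 lower and 6 not called (median 0.07). Plekhm2, an adaptor gene of lysosome movement, rose from 74.6 ± 12.2 to 298.9 ± 56.7 normalized reads per kb (log2 difference 1.98), and Rab32, a small GTPase gene of melanosome and lysosome-related traffic, from 15.4 ± 3.00 to 64.9 ± 17.9 (1.98). Rilp, whose product binds melanoregulin, fell from 315.2 ± 33.2 to 183.3 ± 33.9 (-0.79), and Snapin (-0.49) and the myosin gene Myo5a (-0.31) also fell. The pigment cell and Schwann cell markers rose in all 5 tested genes (median 1.15), from a summed level of 76.9 to 86.6 in Control to 176.3 to 316.4 in AdCKO. Mlana, a melanosome protein gene, rose by 1.39 on the log2 scale and was at 42 ± 11.2 normalized reads per kb in AdCKO, while Mreg was at 230.7. The melanocyte genes Tyr, Tyrp1, Dct and Pmel were not among those tested. Scaling to the same total gave 9 higher and 0 lower transport genes.

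**Figure D5:**
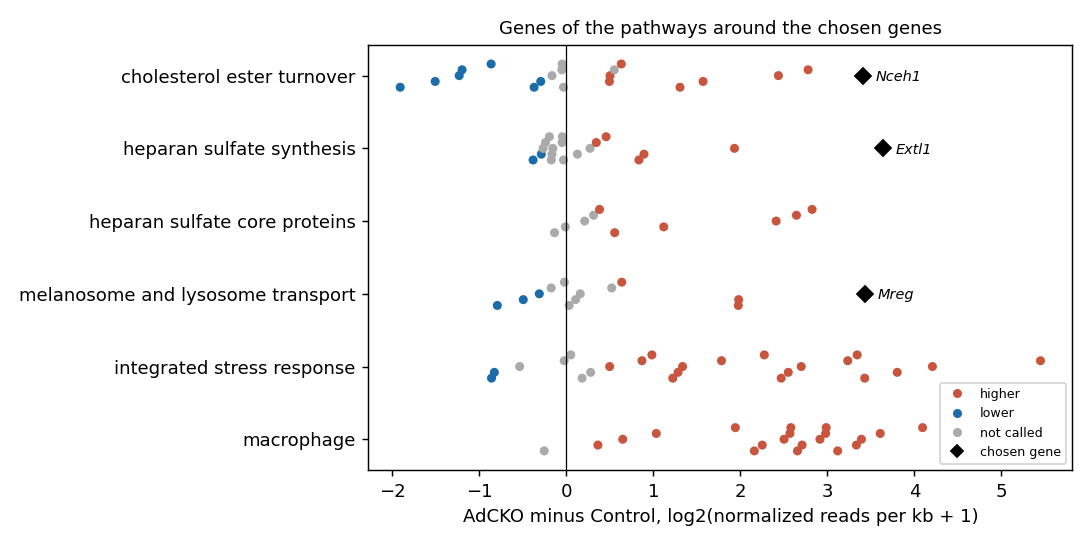
Log2 difference, AdCKO minus Control, of log2(level + 1) for the tested genes of 6 lists, with each of the 5 chosen genes that belongs to a list as a diamond; vertical offsets within a row only separate points. Nceh1 (3.41), Extl1 (3.64) and Mreg (3.43) lie to the right of every other gene of their lists, while most stress and macrophage genes are also higher. Nceh1, Extl1 and Mreg were chosen for their large increases, which favours such a place.

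The lists that the 5 genes were set apart from moved as follows, where 25.6% of all tested genes were higher and 28% lower. Of the integrated stress response genes, 17 of 24 tested were higher and 2 lower, Vldlr (-0.83) and Eif4ebp1 (-0.86), with a median log2 difference of 1.31. The largest were led by Psat1 (3.80), the folate enzyme gene Mthfd2 (3.43), the secreted factor gene Gdf15 (5.45) and Atf3 (4.21). Of the macrophage genes 19 of 20 were higher and 0 lower (median 2.62), and their summed level went from 989.7 to 3038 in Control to 10770 to 14920 in AdCKO. Of lipid-associated macrophage genes 12 of 18 were higher and 0 lower (median 2.36), with Gpnmb (6.42) and Trem2 (3.75) among them. Within AdCKO, 19 of 19 macrophage genes had a positive slope on Cd68 and 0 of 20 on Ddit3, against 52.9% of all genes on Cd68 and 47.9% on Ddit3. Of stress genes 15 of 23 had one on Ddit3 and 12 of 24 on Cd68. At an unadjusted p under 0.05 the slope on Cd68 was positive for 10 of the 19 macrophage genes and for 11 of 11 skeletal muscle genes.

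Markers of other cells changed with the groups, and their part in the levels of the 5 genes was not tested. Over all tested genes 25.6% were higher and 28% lower. Fibroblast and preadipocyte genes were higher in 8 of 8 (median 2.06), with a summed level of 1359 to 1785 in Control and 4880 to 7436 in AdCKO. Of endothelial genes 2 of 8 were higher, near the 25.6% of all tested genes, and 0 lower (median 0.10). Of them 7 of 8 had a positive slope on Ddit3 at an unadjusted p under 0.05, as did 5.86% of all genes. Of mural cell genes 3 of 6 were higher and 2 lower, of T and B lymphocyte genes 1 of 5 was higher, of dendritic cell genes 2 of 3 were higher, and of neutrophil and mast cell genes 2 of 3 were higher and 1, Kit, lower. Of adipocyte genes 2 of 11 were higher and 6 lower (median -0.47), and their sum went from 228600 to 251900 in Control to 153400 to 175200 in AdCKO. Of skeletal muscle genes 1 of 11, Acta1, was called higher, and of sex-linked genes 0 of 4 were higher and 1 lower. When every library had the same total, 7 endothelial genes were higher, and adipocyte genes were split into 4 higher and 2 lower. With quantile normalization 1 adipocyte gene was lower, no lymphocyte gene was called, and 1 dendritic cell gene was lower and 0 higher. None of the measured markers was at 0 in a library, but no gene at all was, so this does not show that the marked cells were present.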

How the data were processed

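Polyadenylated RNA from iBAT of 5 Control and 5 AdCKO mice was sequenced by the authors (Illumina TruSeq libraries), mapped to mm9 with STAR, counted on exons with iRNA-seq, normalized with DESeq2 and divided by exon length. Tool versions are not given in the sources used here. The deposited table holds, for 15075 genes with 1 transcript each, a signal expressed as normalized reads per kb. These are not counts, no value is 0, and how low values were moderated is not named. The depth of the libraries is unknown, counting errors are therefore not stated, and errors are the spread between the 5 separate mice of a group. The authors also deposited fold changes, adjusted p-values, group means and lists of called genes, which were not used. Groups came from the sample titles.

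Values were used as log2(value + 1), which understates changes of low genes. Genes with a mean of at least 10 in either group were tested with limma 3.58.1 in R 4.3.3 (intensity trend, two-sided, Benjamini-Hochberg over all tested genes, threshold 0.01), first between groups and then for the slope on Ddit3 or Cd68 within the 5 AdCKO libraries. Correlation coefficients were not computed from 5 libraries. The order of libraries was given as the number of library pairs ranked alike. The DESeq2 test of the study needs counts and was not run. In simulated data the group test recovered most changed genes, but the slope test recovered only steep slopes and missed all of the moderate ones, which were steeper than those of the 5 genes. The 5 genes and all gene lists were chosen with earlier results of these data known. Named were the 5 genes, Crls1, Ddit3, Cd68, the LHFPL, Ext and Extl genes, up to 4 genes with the smallest p and those against the direction in each other list, the 3 genes most alike, and chromosomal neighbours. Csf1r, Soat2, Pnpla2, Lipe, Lipa and Myo5a were chosen after their values were seen. Promoter windows came from RefSeq (GRCm38.p6), matched exactly to mm9. Same-numbered Control and AdCKO libraries did not deviate together (correlation -0.268 to 0.098), so the numbers were not taken as pairs. Alternatives were other pseudocounts (0.1 and 10), filters, scalings and limma settings, a replicate block, other covariates and leaving out libraries. Those that leave out AdCKO 1, 2 and 4 or add the muscle genes were chosen after seeing the data. Plots were made in Python 3.11.15 (matplotlib 3.10.9).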

Additional observations from a re-analysis of the deposited data

Results flagged for a closer look

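None of the 10 groups of values of the 5 genes had a library set apart from the others by Dixon's test. Among 50 groups examined, 5 sums over gene lists did, and chance alone sets apart about 1 group in 20. In Control 3 the summed LHFPL family level without Lhfpl2 was 25.4 normalized reads per kb, with the next library at 31.7 and the highest at 33.8. Control 3 was also the high library in T and B lymphocyte genes (67, next 42.8) and in fibroblast and preadipocyte genes (1780, next 1480). In AdCKO 1 the sum was 263 for T and B lymphocyte genes (next 77.4) and 316 for Schwann cell and melanocyte genes (next 213). In AdCKO 1 none of the 5 genes was at the top of its group.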

How the results depend on the processing

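The log2 differences of the 5 genes kept their sign in every alternative run. They moved by more than 1 SD with a pseudocount of 0.1 for Extl1 (3.93), and with a pseudocount of 10 they were 3.19 for Lhfpl2, 2.65 for Nceh1, 2.29 for Extl1, 2.98 for Mreg and 2.41 for Prr32. With the same total in every library, which raised the median of all genes by 0.47, they were 4.46, 3.87, 4.06, 3.90 and 3.44 in that order. With quantile normalization (shift -0.07) Lhfpl2 was at 3.85, Nceh1 at 3.24, Extl1 at 3.42 and Prr32 at 2.82. Without AdCKO 1, 2 and 4, Nceh1 was at 3.54. Leaving out 1 library gave 3.95 to 4.04 for Lhfpl2, 3.36 to 3.47 for Nceh1, 3.59 to 3.69 for Extl1, 3.38 to 3.50 for Mreg and 2.92 to 3.02 for Prr32.

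Genes called higher and lower were 2879 and 3152 in the main fit and became 6811 and 1098 with the same total. Without 1 library they were 2648 to 2874 and 2879 to 3066. The replicate block, for numbers that did not pair the libraries (0 of 5 correlated best with their own number), gave 2592 higher and 2838 lower.

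The count of genes with a called slope on Ddit3 was 55 with all 10 libraries and the group as a term, 36 with Cd68 added, 1 with the muscle genes added, and 0 to 57 without 1 AdCKO library, with 47 without AdCKO 1 and 57 without AdCKO 2. On Cd68 it was 31 with all 10 libraries, 13 with Ddit3 added and 0 without any 1 library. None of the 5 genes was among them in any alternative (lowest adjusted p 0.206). The unadjusted p was under 0.05 in 4 of 17 alternatives for Nceh1 on Ddit3 and in 9 of 17 for Prr32 on Cd68, and in 0 of the 5 that leave out 1 AdCKO library for either. For Mreg on Ddit3 it was so in 1 of 17 (0.64, without AdCKO 2). The same count held for Mreg on Cd68 (-0.251, all 10 libraries) and for Nceh1 on Cd68 (-0.437, macrophage list). The slopes of Nceh1, Mreg and Prr32 on Ddit3 kept their sign in 17 of 17 alternatives, as did those of Nceh1 and Prr32 on Cd68. The slope of Extl1 on Ddit3 turned with quantile normalization (0.051), all 10 libraries (0.001), Cd68 added (0.144) and muscle genes added (0.433), and ran from -0.382 to 0.49 without 1 library. Its slope on Cd68 turned with the same total (-0.03), quantile normalization (-0.058), the macrophage list (-0.147) and muscle genes added (-0.043), and ran from -0.27 to 0.585 without 1 library. Lhfpl2 turned on Ddit3 with the stress list (0.224) and with muscle genes added (1.22), and on Cd68 with all 10 libraries (-0.003) and with Ddit3 added (-0.033). Mreg on Cd68 ran from -0.544 to 0.10, the latter without AdCKO 4. The cause of these changes was not tested.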
